A study of Mus musculus with 14 samples.

Results

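Thymocytes that had lost both Ezh2 and p53 were compared with wild-type (WT) thymocytes of the same stage before any leukemia had formed. The comparison used 6 of the 14 mouse arrays of the study: 3 of WT cells and 3 of double-deleted cells, written Ezh2Δ/Δp53Δ/Δ in the labels, chosen because the labels gave these genotypes and no leukemia. All cells were C57BL/6 CD4-CD8- thymic cells, and each genotype had 1 array at each of 3 stages. The sort took CD44+CD25- cells as DN1, CD44+CD25+ cells as DN2 and CD44-CD25+ cells as DN3. Lethally irradiated CD45.1+ wild-type recipients had received bone marrow that carried Cre-ERT2 alone (WT) or Cre-ERT2 with Ezh2flox/flox and p53flox/flox (double-deleted). All groups therefore carried the inducible Cre. Deletion was induced 4 weeks after transplantation and the cells were taken 3 months after transplantation, so the irradiated thymus itself remained that of the recipient. Another 6 arrays held Ezh2Δ/Δ and p53Δ/Δ cells at the same stages, used here for the shared spread and for side by side values, and 2 leukemic arrays were not compared. The labels do not say how many mice stand behind an array. The stages were the only repeats of a genotype, so each p-value measures agreement across stages on 1 array each and not the spread between mice.

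EZH2 is the catalytic subunit of Polycomb repressive complex 2 (PRC2), which methylates lysine 27 of histone H3 and keeps developmental genes silent. The protein p53, encoded by Trp53, is a stress-activated transcription factor that halts the cell cycle or triggers cell death. The Cdkn2a locus joins both: PRC2 represses it, one of its products, ARF, stabilises p53, and the other, INK4A, inhibits the cyclin-dependent kinases CDK4 and CDK6. In the DN stages, progenitors commit to the T lineage, proliferate and rearrange their T cell receptor genes.

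The gated markers followed the labels in both genotypes. Levels are given throughout as log2 of the signal over the 75th percentile of its array, so 0 is the level of that percentile. Il2ra, which encodes CD25, stood at 0.40 in WT DN1, 6.89 in DN2 and 6.36 in DN3, and at 2.42, 6.35 and 6.48 in double-deleted cells. Cd44 went from 2.81 in WT DN1 to 1.09 in DN2 and -0.58 in DN3, and from 2.50 to 1.41 and -0.80 in double-deleted cells. None of the 11 thymocyte markers examined was called different, beside 7.39% of all features, a share that comes to few genes in so short a list. In DN1, on 1 array each, double-deleted cells were higher by 2.02 for Il2ra, 2.53 for Dntt and 3.015 for Ptcra. Notch1, Cd44 and Gata3 differed there by -0.831, -0.305 and -0.097. Markers of other cells differed in where they were detected. The NK cell genes Klrb1c, Klrd1 and Ncr1 were well above background in DN1 of both genotypes and in no DN2 or DN3 array of the 6, and so was the B cell gene Ms4a1. Eomes, another NK cell gene, was well above background in DN1 of both genotypes and also in double-deleted DN2. Elane, Lyz2, Itgam, Siglech, Cd74, Gata1, Epcam and Pecam1, markers of myeloid, dendritic, erythroid and stromal cells, were well above background on all 6 arrays. Among these, Siglech stood at 8.71, 8.54 and 8.33 in WT and at 7.76, 7.73 and 7.86 in double-deleted cells. The platelet gene Pf4 was not well above background on any of the 6 arrays. In bulk RNA, fewer cells of a type and less RNA per cell cannot be told apart. The 5 arrays of WT cells and of double-deleted DN2 and DN3 shared 1 slide, and double-deleted DN1 was alone among these arrays on another. The 75th percentile of signal was 298.6 to 310.9 on the WT arrays and 505.0 to 589.1 on the double-deleted arrays, before scaling. The share of probes well above background was 44.3% to 50.3% in WT and 49.8% to 50.4% in double-deleted cells.

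The targeted genes were examined first. The Trp53 probe stood at -0.02, 0.87 and 1.12 in WT DN1, DN2 and DN3 and at -4.03, -2.59 and -0.67 in the double-deleted cells. Every double-deleted level was below every WT level, with a log2 difference of -3.08 ± 0.74 (SE of the limma fit) and an adjusted p of 0.0434, and the gap was narrowest in DN3. That call was lost without any 1 array except double-deleted DN3: the adjusted p was 0.116 without WT DN1, 0.139 without WT DN2, 0.0728 without WT DN3, 0.154 without double-deleted DN1 and 0.16 without double-deleted DN2. The Ezh2 probe stood at 2.23, 4.0 and 4.26 in WT and at 3.67, 4.13 and 3.83 in double-deleted cells, where the ranges overlapped and the difference of 0.38 ± 0.39 was not called (adjusted p = 0.57). Where either probe lies relative to the floxed exons was not analysed here, so an Ezh2 transcript that lacks them may still be measured and the Ezh2 probe does not check the label.

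Loss of both genes was accompanied by rises that were larger than the falls. Over 27067 features tested with limma, 2001 passed an adjusted p of 0.05 (7.39%), of which 975 rose and 1026 fell, and the median log2 difference of all features was -0.14. Among the 14254 features with a gene name, 760 rose (5.33%) and 294 fell (2.06%), all with 1 sign at all 3 stages. The median change of the named genes that rose was 5.8-fold, against 2.42-fold for those that fell. Of those that rose, 528 passed 4-fold and 130 passed 16-fold, while 53 of those that fell passed 4-fold and 0 passed 16-fold. Of the genes that rose, 318 were not well above background on any WT array. The WT and double-deleted ranges did not overlap for 726 of the 760 and for 272 of the 294, beside 26.9% of all named genes tested.

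How many genes were called depended on the arrays and the scaling, and the falls did so most. With slide as a block the count was 552 (447 rose, 105 fell). Double-deleted DN1 was alone on its slide, so this fit was the same as leaving that array out. Within the shared slide, over DN2 and DN3 alone, the count was 358 (330 rose, 28 fell). That fit rested on fewer arrays, so a call lost there does not measure a slide effect. Of the 89 named genes examined, 37 kept their call within the shared slide. Among the 47 that kept it without any 1 of the 6 arrays, 18 lost it within the shared slide: Arsi, Col4a1, Epop, Grifin, Hoxa11, Hoxb4, Hoxc9, Igf2bp3, Kcnh6, Kitl, Lama1, Lamb1, Lhx2, Prss41, Slc38a8, Socs2, Tceal8 and Tmem88. Fitting only the 6 arrays gave 626 calls. Leaving out 1 array gave 848 calls without WT DN1, 585 without WT DN2, 1862 without WT DN3, 552 without double-deleted DN1, 395 without double-deleted DN2 and 689 without double-deleted DN3. Scaling by the median gave 1028 rises and 263 falls, and scaling by probes detected on all arrays gave 779 and 382, where the fit above gave 975 and 1026. Normexp background correction gave 1643 rises and 8689 falls.

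**Figure D1:**
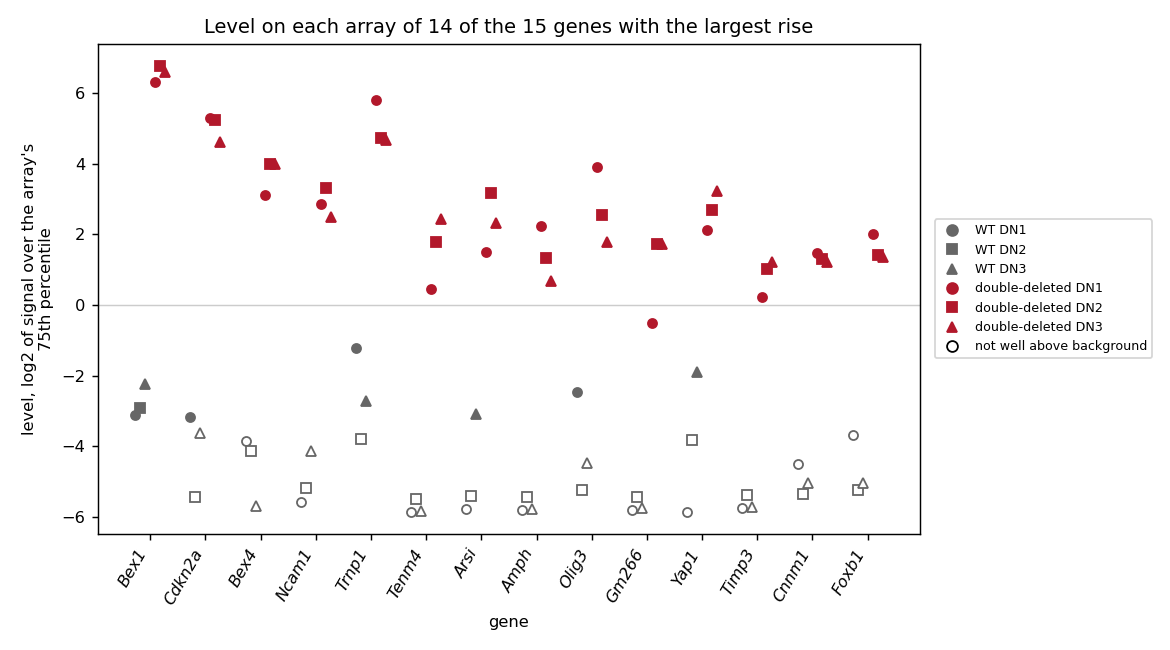
Level of 14 of the 15 named genes with the largest rise on each of the 6 arrays, as log2 of the signal over the array's 75th percentile, with WT in grey, double-deleted in red, a marker shape for each stage, and open markers where the probe was not well above background. For every gene all 3 double-deleted points lie above all 3 WT points; Bex1 runs from -3.11 to -2.24 in WT and from 6.31 to 6.75 in double-deleted cells.

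The largest rises were in genes with low or undetected levels in WT thymocytes. Bex1, a small X-linked adaptor protein best known from neurons, stood at -3.11, -2.93 and -2.24 in WT DN1, DN2 and DN3 and at 6.31, 6.75 and 6.60 in double-deleted cells. The groups were far apart, with a log2 difference of 9.31 ± 0.52, a 636-fold rise (adjusted p = 9.23e-05). Cdkn2a stood at -3.17, -5.44 and -3.61 in WT and at 5.29, 5.24 and 4.60 in double-deleted cells, with a difference of 9.12 ± 0.62 (adjusted p = 0.000195), and only 1 of the 3 WT arrays was well above background. Ncam1, the neural cell adhesion molecule CD56, was not well above background on any WT array and stood at 2.86, 3.31 and 2.48 in double-deleted cells, at least 138-fold higher (adjusted p = 6.02e-05). Such bounds set the double-deleted mean against the detection limit of the WT arrays.

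The rest of the top 15 had varied known roles. Bex4, a relative of Bex1, was not well above background in WT and stood at 3.10, 3.98 and 4.0 in double-deleted cells, at least 193-fold higher (adjusted p = 0.000742). Trnp1, a nuclear protein of neural progenitors, went from -1.22, -3.79 and -2.73 in WT to 5.80, 4.72 and 4.65, a difference of 7.63 ± 0.51. Foxb1, a transcription factor of the developing nervous system, was not well above background in WT and stood at 2.0, 1.42 and 1.37 in double-deleted cells, at least 43.2-fold higher (adjusted p = 0.000125). Olig3, also a neural transcription factor, stood at -2.47, -5.24 and -4.46 in WT and at 3.90, 2.55 and 1.78 in double-deleted cells, a difference of 6.80 ± 0.68. Amph, which encodes the synaptic membrane protein amphiphysin, was at least 50.3-fold higher, and Tenm4, a teneurin adhesion protein, at least 55.9-fold higher, though 1 of its 2 probes moved the opposite way.

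Yap1, the transcriptional coactivator restrained by the Hippo pathway, stood at -5.85, -3.81 and -1.91 in WT and at 2.11, 2.70 and 3.23 in double-deleted cells. It rose with each stage in both genotypes and the difference narrowed from 7.95 in DN1 to 5.13 in DN3, with a mean of 6.53 ± 0.52 (adjusted p = 0.000344). Timp3, an inhibitor of matrix metalloproteinases, was at least 33.5-fold higher, Cnnm1 at least 43.7-fold and the predicted gene Gm266 at least 37.4-fold. Arsi, an arylsulfatase, differed by 7.08 ± 0.71. All 15 kept their call without any 1 of the 6 arrays.

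The INK4 and CIP/KIP genes, which encode inhibitors of cyclin-dependent kinases, held 3 rises and no fall among 7 tested, with a median log2 difference of 1.06. Besides Cdkn2a, its neighbour Cdkn2b, which encodes INK4B, rose from -2.98, -5.43 and -5.76 in WT to 1.56, 1.25 and 0.86 in double-deleted cells, a difference of 5.95 ± 0.49 (adjusted p = 0.000391), with 1 of 3 WT arrays well above background. Cdkn1c, which encodes the imprinted inhibitor KIP2, stood at -1.58, -1.75 and -1.67 in WT and at 1.60, 1.62 and 1.44 in double-deleted cells. The stages hardly differed in either genotype and the difference was 3.21 ± 0.23, a 9.28-fold rise (adjusted p = 0.00025). The p53 target Cdkn1a stood at -0.49, 2.83 and 2.27 in WT and at -0.01, 1.81 and 2.49 in double-deleted cells, with overlapping ranges and a difference of -0.10 ± 0.32 (adjusted p = 0.859). The 3 rises were called in every alternative fit that was run.

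Cdkn2a and Cdkn2b lie next to each other among the tested genes. Of the 8 tested genes on either side of Cdkn2a in RefSeq order, Cdkn2b and Tusc1 rose, Zfp352 fell (-1.14 ± 0.29), and Mtap, the direct neighbour on the other side, had a difference of 1.24 ± 0.36 that was not called (adjusted p = 0.0716). The rise of Tusc1 was 1.08 ± 0.24. RefSeq lists 2 start sites for Cdkn2a, and their windows are printed to show how different the promoters are that could feed the Cdkn2a signal; the array does not tell the transcripts apart. Each window runs from 250 bases before to 50 bases after the start, 5′ to 3′ on the transcribed strand, in build GRCm38.p6, with every CG dinucleotide (CpG), the target of DNA methylation, in capitals. Both Cdkn2a windows and that of Cdkn2b are on the minus strand, at chr4:89294570-89294869 for the upstream Cdkn2a start, chr4:89282143-89282442 for the downstream one and chr4:89310983-89311282 for Cdkn2b.
Cdkn2a upstream start: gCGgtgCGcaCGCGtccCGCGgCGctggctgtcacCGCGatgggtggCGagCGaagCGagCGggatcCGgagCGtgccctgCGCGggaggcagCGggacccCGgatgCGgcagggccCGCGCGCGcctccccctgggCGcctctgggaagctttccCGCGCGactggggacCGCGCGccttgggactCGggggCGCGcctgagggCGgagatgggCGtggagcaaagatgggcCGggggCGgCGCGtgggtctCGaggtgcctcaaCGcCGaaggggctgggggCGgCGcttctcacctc
Cdkn2a downstream start: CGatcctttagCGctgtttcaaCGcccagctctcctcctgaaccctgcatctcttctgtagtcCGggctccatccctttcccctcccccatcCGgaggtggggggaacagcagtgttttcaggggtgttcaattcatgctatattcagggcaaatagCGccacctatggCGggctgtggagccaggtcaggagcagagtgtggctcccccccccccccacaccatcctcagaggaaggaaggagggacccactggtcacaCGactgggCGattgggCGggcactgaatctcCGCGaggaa
Cdkn2b: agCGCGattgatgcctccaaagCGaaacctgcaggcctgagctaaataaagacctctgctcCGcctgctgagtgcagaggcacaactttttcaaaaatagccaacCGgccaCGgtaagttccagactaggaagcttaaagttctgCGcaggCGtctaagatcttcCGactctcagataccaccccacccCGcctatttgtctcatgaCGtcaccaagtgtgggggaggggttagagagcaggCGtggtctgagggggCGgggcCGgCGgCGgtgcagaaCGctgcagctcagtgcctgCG
The motif is CG, the same on both strands, and 94.6% of the 32851 RefSeq windows of this length hold at least 1, with a median of 7. The upstream Cdkn2a window holds 45, more than 98.1% of windows, the downstream one 12 and the Cdkn2b window 18. These counts are a description of sequence and do not measure methylation.

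Many of the genes that surround Bex1 on the X chromosome rose. Of the 8 tested genes on either side of Bex1, 7 rose and 0 fell: Arxes2, Arxes1, Bex2, Bex4, Tceal8, Tceal7 and Tceal3. Bex2 stood at -2.69, -2.16 and -1.57 in WT and at 2.74, 3.23 and 3.26 in double-deleted cells, a difference of 5.21 ± 0.37 (adjusted p = 0.00025). Tceal8, of the related transcription elongation factor-like family, was at least 9.94-fold higher (adjusted p = 0.00252). Tceal3 reached 3.27 ± 0.82 (adjusted p = 0.0468), mostly in DN2 and DN3, since WT DN1 stood at 0.28 and double-deleted DN1 at 0.83. Its call was lost without any 1 array except WT DN1, with adjusted p-values of 0.146 without WT DN2, 0.0864 without WT DN3, 0.0755 without double-deleted DN1, 0.171 without double-deleted DN2 and 0.146 without double-deleted DN3. Bex3, in the same stretch, differed by 0.55 ± 0.25 and was not called (adjusted p = 0.194). The windows of Bex1 (minus strand, chrX:136215464-136215763) and Bex4 (plus strand, chrX:136138746-136139045) are shown as those of the genes of this stretch with the largest rises, with CpG in capitals.
Bex1: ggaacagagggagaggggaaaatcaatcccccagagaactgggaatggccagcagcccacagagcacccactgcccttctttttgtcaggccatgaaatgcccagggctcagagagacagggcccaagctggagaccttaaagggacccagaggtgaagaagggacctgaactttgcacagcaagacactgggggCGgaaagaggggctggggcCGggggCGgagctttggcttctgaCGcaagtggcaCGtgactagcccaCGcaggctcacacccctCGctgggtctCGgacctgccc
Bex4: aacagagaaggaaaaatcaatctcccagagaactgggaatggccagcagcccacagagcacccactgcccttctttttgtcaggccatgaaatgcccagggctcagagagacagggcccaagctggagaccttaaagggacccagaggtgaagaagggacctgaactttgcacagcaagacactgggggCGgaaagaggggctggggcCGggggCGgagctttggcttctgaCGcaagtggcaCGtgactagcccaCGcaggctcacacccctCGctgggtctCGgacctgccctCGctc
They hold 8 and 9 CpG, close to the median of 7 over all windows. Unlike the upstream Cdkn2a window, neither stands out among RefSeq windows for its CpG count.

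Outside Bex1 and these 16 neighbours, 53 of 492 tested X-linked genes rose (10.8%), against 698 of 13737 autosomal genes (5.08%), a tally made after the values were seen. Among the 53 were Rps6ka6, a kinase of the RSK family, with a difference of 6.22 ± 0.42, and Zfp711, a zinc finger protein, with 5.74 ± 0.86. Xist was not well above background on any of the 6 arrays, and the Y-linked Ddx3y, Eif2s3y and Uty were well above background on all of them, so WT and double-deleted cells matched in these sex markers. The Ezh2-deleted arrays did not match: Xist stood at 1.54, 1.99 and 2.37 there and Eif2s3y at -5.70, -5.18 and -5.59.

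In the list of Bex, Tceal and neural genes as a whole, 9 of 35 tested members rose and 1 fell, with a median log2 difference of 0.60. With no filter on detection the median over 51 members was -0.21, with 7 rises and 0 falls. In that fit the median over all 48997 features was -0.51. Over all named genes the median ran from -0.18 to 0.27 across the alternative fits. Kif5c, a neuronal kinesin, rose by 2.45 ± 0.51, mostly in DN2 and DN3. Its call was lost without WT DN2, WT DN3, double-deleted DN2 or double-deleted DN3 (adjusted p = 0.0598 to 0.12), and the difference was 0.53 with normexp. The call of Tceal7 was lost without the same arrays (up to 0.119). Snap25, a synaptic vesicle fusion protein, was the 1 fall, from 5.55, 5.27 and 4.73 in WT to 3.70, 3.99 and 4.22 in double-deleted cells, a difference of -1.22 ± 0.30 (adjusted p = 0.0466). The rises were 9 without WT DN1, 7 without double-deleted DN1 and 5 without any other 1 array, and the fall of Snap25 kept its call without WT DN3 alone.

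Hox genes, the homeobox transcription factors that set position along the body axis and are classic PRC2 targets, were low in WT cells and rose in part. Of 39 members, 20 passed the detection filter, and of these 9 rose and 1 fell, with a median of 0.97. The filter can admit a gene through the arrays where it is high. With no filter the median over 39 members was -0.32, again with 9 rises and 1 fall. The median over all features in that fit was -0.51, and that over all named genes ran from -0.18 to 0.27 across the alternative fits. Hoxb13 was not well above background in WT and was at least 8.56-fold higher (adjusted p = 0.000675). It stood at -0.18, -1.38 and -1.90 in double-deleted DN1, DN2 and DN3, and Hoxc9 at -0.09, -0.84 and -2.80, so that both were highest in DN1. Hoxc9 was at least 7.4-fold higher (adjusted p = 0.00296). Hoxb4, a gene of blood progenitors, was measured on all WT arrays, at -1.71, -1.11 and -2.05, and stood at 0.17, -0.03 and 0.28 in double-deleted cells, a difference of 1.76 ± 0.27 (adjusted p = 0.00854).

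Hoxa10 and Hoxa11 were at least 3.33-fold and 4.67-fold higher, and Hoxa4 and Hoxa13 at least 1.7-fold and 2.99-fold. Hoxc4 differed by 3.02 ± 0.42. Hoxc12 was the fall, with a bound of 3.18-fold. Only 1 WT array was well above background, so the WT mean holds undetected signal and this bound is not strict. The call of Hoxc12 was lost without any 1 array except WT DN3 (up to 0.115). With 1 array left out, 7 or 8 Hox genes rose, the calls of Hoxa4 and Hoxa13 being those lost, and within the shared slide 4 did. Hoxa4 turned to -0.16 under normexp background correction.

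Developmental PRC2 targets outside the Hox clusters had a median difference below 0, though more of them were well above background in double-deleted cells. Of 23 tested, 3 rose and 1 fell (17.4%, beside 7.39% of all features), and the median of -0.51 lay below the 0.06 of all named genes. With no filter on detection the median over 65 members was -0.6, beside -0.51 over all features in that fit. Other measures of the 23 went the other way. Their median level was -3.14, -3.62 and -3.46 in WT DN1, DN2 and DN3 and -2.96, -2.74 and -2.98 in double-deleted cells. Members well above background numbered 13, 10 and 12 in WT and 18, 21 and 14 in double-deleted cells. Lhx2, a LIM-homeobox factor, stood at -4.82, -5.32 and -3.18 in WT and at 0.39, 0.95 and -0.15 in double-deleted cells, a difference of 4.84 ± 0.54. The rise of Tbx15 was at least 2.13-fold, with adjusted p = 0.0434 and up to 0.18 with 1 array left out. Nkx2-2, a neural tube factor, fell by 1.17 ± 0.26, a call lost without any 1 array (adjusted p = 0.0627 to 0.165).

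In the list of fetal LIN28 and IGF2BP genes, 3 of 12 rose and none fell, with a median of 0.65, and 8 of 12 differences were above 0. With no filter on detection the median over 16 members was 0.19, again with 3 rises. All features had a median of -0.51 in that fit, and all named genes -0.18 to 0.27 across the alternative fits. Lin28b, which blocks maturation of let-7 microRNAs and marks fetal blood stem cells, was not well above background in WT and stood at -0.63, -0.19 and -1.35 in double-deleted cells, at least 11.5-fold higher (adjusted p = 0.000193). Igf2bp3, a fetal RNA-binding protein that LIN28B promotes, stood at 0.56, 0.42 and -0.04, at least 20.3-fold higher (adjusted p = 0.00573). Plagl1, an imprinted zinc finger gene, rose across the stages, from -1.28, -2.72 and -2.22 in WT to 2.22, 4.15 and 5.46 in double-deleted cells. Its difference grew from 3.50 in DN1 to 7.67 in DN3, with a mean of 6.01 ± 0.86 (adjusted p = 0.00617). Lin28b and Plagl1 were called in every alternative fit, and Igf2bp3 in each but that within the shared slide.

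**Figure D2:**
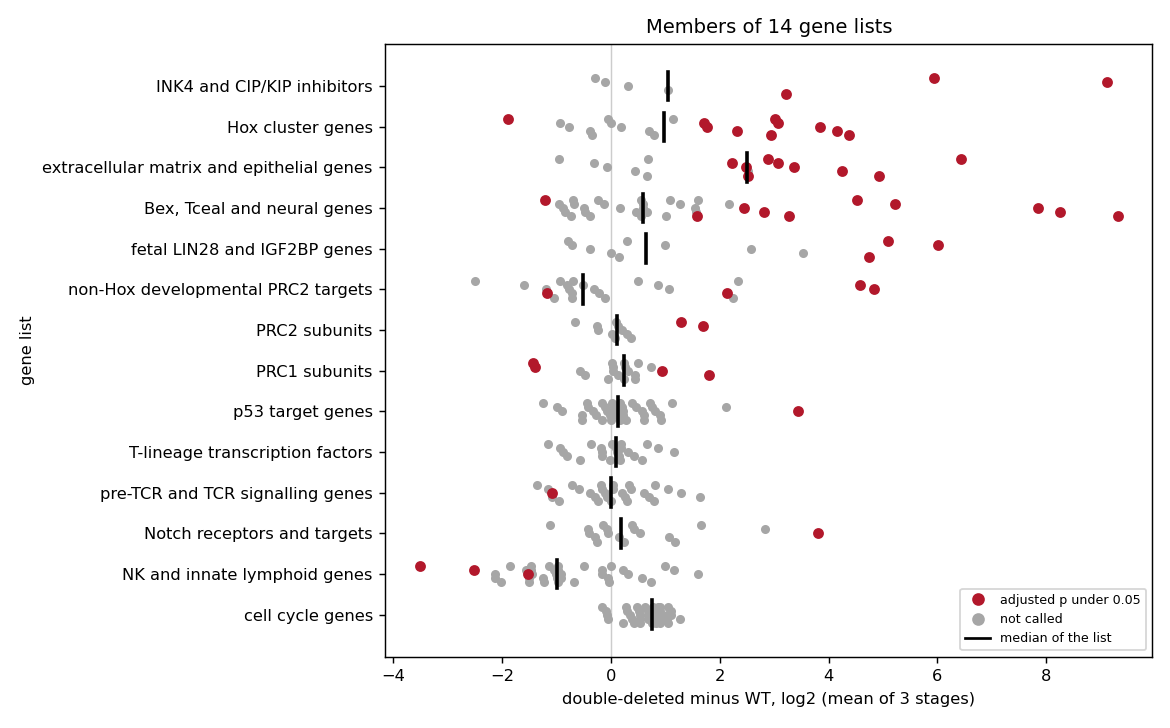
Log2 difference of double-deleted minus WT cells (mean over 3 stages) for the tested members of 14 gene lists, with called members in red, others in grey and the median of each list as a black bar. The matrix and epithelial list lies farthest to the right with a median of 2.50, while T-lineage transcription factors centre on 0.09 and NK genes on -0.98.

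Matrix and epithelial genes had the largest median of the 32 lists, 2.50, with 9 of 16 tested members risen and none fallen. Of 25 members 16 passed the detection filter, and over the alternative fits the median ran from 0.61 to 2.7. Besides Timp3, the risen members were the laminin chains Lama1, Lama5 and Lamb1, the collagen IV chains Col4a1 and Col4a2, fibronectin (Fn1), the membrane protease Mmp14 and keratin 18 (Krt18). Krt18 stood at -0.09, -0.57 and -0.49 in WT and at 2.61, 2.48 and 2.43 in double-deleted cells, a difference of 2.89 ± 0.43 (adjusted p = 0.00742). Lamb1 went from -5.09, -5.12 and -2.98 to 0.21, 0.56 and 0.81, a difference of 4.92 ± 0.50 (adjusted p = 0.00125). Fn1 was at least 8.17-fold higher and fell off with stage, at -0.45, -0.86 and -2.34, while Col4a1 and Col4a2, at least 4.19-fold and 4.03-fold higher, went the other way and were highest in DN3. With 1 array left out, the adjusted p rose to as much as 0.139 for Fn1, 0.121 for Mmp14, 0.0794 for Lama5 and 0.0753 for Col4a2, which ended those calls.

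With 1 array left out, 5 to 8 of these members rose (5 without WT DN2 or without double-deleted DN2, 6 without double-deleted DN1), and within the shared slide 2 did. Stromal genes give a measure of other cells: of 14 thymic stroma and endothelium genes, 3 rose (Sparc, Col1a2 and Kitl) and Kdr fell. Their summed linear signal was 26.3, 28.4 and 24.5 in WT DN1, DN2 and DN3 and 31.6, 22.4 and 21.4 in double-deleted cells, with 8 to 12 and 12 to 13 members well above background. The epithelial surface gene Epcam stood at -2.95, -2.36 and -0.09 in WT and -3.23, -3.07 and -1.26 in double-deleted cells, and Col1a1 differed by -0.27. Neither was called (adjusted p = 0.274 and 0.721). The part of stromal cells in the matrix genes was not tested. Sparc, a matrix glycoprotein, differed by 4.25 ± 0.77 (adjusted p = 0.0168) but lost its call without any 1 array except WT DN3, with adjusted p-values of 0.054 to 0.0794. Col1a2 and Kdr lost theirs without any 1 of the 6.

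Genes of the Polycomb machinery were examined by complex. Of 12 PRC2 genes 2 rose and none fell (16.7%, beside 7.39% of all features), with a median of 0.11. Epop, an accessory factor of PRC2, stood at 1.84, 1.94 and 1.93 in WT and at 3.56, 3.76 and 3.51 in double-deleted cells, a difference of 1.70 ± 0.21 (adjusted p = 0.00314), and kept its call without any 1 array. Phf19, which recruits PRC2 to chromatin, rose by 1.29 ± 0.31 (adjusted p = 0.0427, and 0.0737 to 0.184 where a left-out array ended the call, each of the 6 except WT DN3).

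Of 19 PRC1 genes 2 rose and 2 fell (21.1%). Bmi1, a ring finger protein that represses Cdkn2a, stood at 1.63, 1.92 and 2.42 in WT and at 3.90, 3.87 and 3.59 in double-deleted cells, a difference of 1.80 ± 0.29 (adjusted p = 0.0118). Its call was lost without WT DN2, double-deleted DN1 or double-deleted DN2, at 0.0607 to 0.0659. Yaf2 rose by 0.94 ± 0.20. The chromodomain gene Cbx8 fell by 1.44 ± 0.29 (adjusted p = 0.0268). The calls of Yaf2 and Cbx8 were lost without any 1 of the 6 arrays (up to 0.119 and 0.123). Among DNA methylation genes, 1 of 14 rose and 1 fell (14.3%, beside 7.39% of all features). Dnmt3a differed by 1.21 ± 0.23 and its cofactor gene Dnmt3l was at least 2.55-fold lower. Where a left-out array ended the call, their adjusted p-values were up to 0.0955 and 0.184.

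Of 38 p53 targets tested, 1 rose and none fell (2.63%, beside 7.39% of all features), with a median of 0.13 and 24 differences above 0. Perp, a desmosomal p53 target linked to cell death, was the riser, from -0.27, -2.83 and -3.64 in WT to 2.39, 0.96 and 0.22 in double-deleted cells, so that the double-deleted level was the higher at each stage. Its difference was 3.44 ± 0.62 (adjusted p = 0.0169), and the call was lost without WT DN2 or any 1 double-deleted array (0.0503 to 0.0807). Mdm2, the p53 ubiquitin ligase, stood at 4.52 in each WT array and at 4.78, 4.30 and 4.43 in double-deleted cells, a difference of -0.02 ± 0.20. Of 15 BCL2 family genes, 2 rose (13.3%): Bmf and Bik, both pro-apoptotic BH3-only genes. They rose by 2.61 ± 0.46 and 3.01 ± 0.74, with adjusted p-values of 0.016 and 0.0454. The call of Bmf held without WT DN3 and without double-deleted DN3, and that of Bik without WT DN1 only, the others giving up to 0.0876 and 0.155.

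None of 23 T-lineage transcription factors was called, beside 7.39% of all features (limma, 3 at an unadjusted p under 0.05), with a median of 0.09. Tcf7 stood at 3.82, 4.33 and 5.11 in WT and at 4.20, 4.49 and 4.50 in double-deleted cells, and Gata3 differed by -0.17 ± 0.33. Of 29 pre-TCR and TCR signalling genes, the costimulatory receptor Cd28 fell by 1.09 ± 0.24 (adjusted p = 0.0322), a call lost without any 1 array (0.0589 to 0.116), and none rose (3.45% called). Ptcra, the pre-TCR alpha chain, spanned a narrower range over the stages in double-deleted cells: -2.38, 1.25 and 5.82 in WT against 0.64, 2.69 and 5.26, with no call for the mean difference of 1.30 ± 0.85 (adjusted p = 0.355). Cd3e stayed between 5.80 and 7.23 in WT and between 6.34 and 6.81 in double-deleted cells.

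Hey1, a transcriptional repressor downstream of Notch, was the 1 called gene among 18 Notch receptors and targets (5.56%, beside 7.39% of all features). It stood at -0.28, 0.79 and 0.01 in WT and at 3.38, 4.12 and 4.41 in double-deleted cells. The groups did not overlap, with a difference of 3.80 ± 0.43 (adjusted p = 0.00222), called in every alternative fit. Notch1 differed by -0.43 ± 0.38 (adjusted p = 0.504) and the median of the list was 0.19. In the 27 IL-7 receptor and JAK-STAT genes, Socs2, a feedback inhibitor of cytokine signalling, rose from -1.19, 0.89 and -1.73 to 1.65, 3.54 and 2.81, a difference of 3.34 ± 0.49 (adjusted p = 0.0071) that kept its call without any 1 array. Il7r differed by -0.06 ± 0.55. None of 28 stem and early progenitor genes was called (4 at an unadjusted p under 0.05), and Kit and Flt3 both had differences of 0.88.

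Myeloid genes moved in both directions, with 2 of 28 tested risen, 1 fallen and a median of -0.58. Cd14, a monocyte receptor, was at least 2.08-fold higher, and its call was lost without WT DN2, double-deleted DN2 or double-deleted DN3 (0.0714 to 0.112). Itgam, which encodes CD11b, fell by 1.18 ± 0.30 (adjusted p = 0.0493, and up to 0.181 with 1 array left out). The summed linear signal of the 28 myeloid genes was 513, 409 and 295 in WT DN1, DN2 and DN3 and 247, 241 and 238 in double-deleted cells, and Lyz2 differed by -0.09. The summed myeloid signal was thus lower in double-deleted cells at each stage, but other measures of the list differed. Its median level was lower in double-deleted DN1 (-0.64 against -0.27 in WT) and higher in DN2 (-0.82 against -2.61) and DN3 (-2.53 against -3.75). Members well above background numbered 26, 21 and 21 in double-deleted DN1, DN2 and DN3 and 24, 15 and 13 in WT.

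Counts for the lists of other lineages and of general cell functions stand beside the 7.39% called among all features, a share that comes to few genes in a short list. None was called by limma among 19 B-lineage, 20 dendritic cell and antigen presentation, 17 gamma delta T and type 17 and 18 erythroid, megakaryocyte and mast cell genes, where 5, 4, 1 and 4 passed an unadjusted p under 0.05. The B cell gene Ms4a1 differed by 0.28 ± 0.86, the class II genes H2-Ab1 and H2-Aa by 0.47 ± 0.56 and 0.16 ± 1.43, and the erythroid factor Gata1 by 0.25 ± 0.32. Sox13 and Sox4, factors of gamma delta T cells, differed by -0.64 ± 0.43 and -0.33 ± 0.26. Of 23 genes of double-positive thymocytes the transporter gene Slc6a19 was at least 1.42-fold lower (adjusted p = 0.0407, and up to 0.164 with 1 array left out). Cd4 and Cd8a, which the sort selects against, stood at 2.98, 2.56 and 2.42 and at 0.26, -1.70 and -1.31 in WT, and differed by -0.72 ± 0.23 and -1.15 ± 0.35 without a call (adjusted p = 0.0849 and 0.0784).

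Growth and stress genes gave the same count of 0. None was called among 12 genes of D cyclins and the RB family, 30 MYC and ribosome biogenesis genes, 28 genes of the interferon response, 26 early response or heat-shock genes, 25 DNA damage genes, 20 chemokine receptor genes and 12 MHC class I genes, where limma gave 2, 2, 4, 5, 0, 3 and 1 at an unadjusted p under 0.05. Myc itself stood at 1.81, 2.84 and 3.35 in WT and at 1.90, 2.74 and 2.94 in double-deleted cells. Ccnd1, which encodes cyclin D1, differed by -1.41 ± 0.56 (adjusted p = 0.146) and Ccnd2 by 0.25 ± 0.26. The interferon gene Ifit1 differed by 1.00 ± 0.30 (adjusted p = 0.0761), the early response gene Fos by -0.81 ± 0.52, the checkpoint kinase gene Atm by 0.51 ± 0.23, the homing receptor Ccr9 by -0.35 ± 1.14 and the class I gene H2-K1 by -0.21 ± 0.29.

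**Figure D3:**
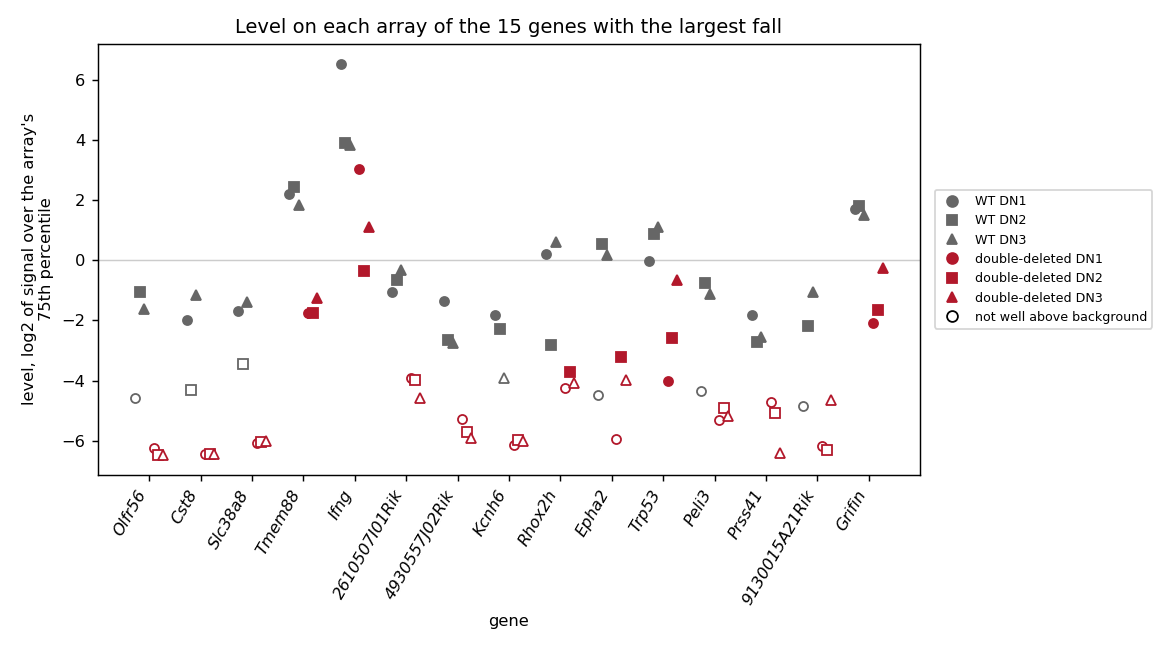
Level of the 15 named genes with the largest fall on each of the 6 arrays, on the same axis and with the same symbols as for the rises. Tmem88 and Grifin are measured on all arrays, at 1.84 to 2.44 against -1.77 to -1.27 and at 1.51 to 1.82 against -2.10 to -0.25, while most of the others have open markers in double-deleted cells.

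Falls were smaller than rises. Of the 294 named genes that fell, 46 were not well above background on any double-deleted array, and the largest falls held many of these. The clearest fall measured on all 6 arrays was that of Tmem88, a membrane protein that dampens Wnt signalling. Tmem88 stood at 2.21, 2.44 and 1.84 in WT and at -1.75, -1.77 and -1.27 in double-deleted cells. It fell by 3.76 ± 0.47, a 13.5-fold change (adjusted p = 0.00336). Grifin, a lens galectin relative, stood at 1.71, 1.82 and 1.51 in WT and at -2.10, -1.65 and -0.25 in double-deleted cells, a fall of 3.01 ± 0.38 (adjusted p = 0.00376). Both kept their call without any 1 array. Of the other genes in the top 15, 9 were not well above background on any double-deleted array, so only bounds hold.

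The noncoding or predicted genes 2610507I01Rik and 4930557J02Rik were at least 11.1-fold and 6.15-fold lower, and both were called in every alternative fit. Slc38a8, an amino acid transporter, was at least 6.49-fold lower. Bounds for Olfr56, Cst8, Kcnh6, Peli3, Prss41 and 9130015A21Rik lay between 4.53-fold and 6.42-fold. The calls of Peli3 and 9130015A21Rik were lost without any 1 array except WT DN1 (adjusted p up to 0.164 and 0.175), that of Cst8 without WT DN1 or any 1 double-deleted array (up to 0.0753), and that of Olfr56 without WT DN2 or double-deleted DN2 (up to 0.0739). Of those 9 genes, 6 had been well above background on 2 of 3 WT arrays only, so their bounds are not strict. Epha2, an ephrin receptor, and Rhox2h, a reproductive homeobox gene, were well above background on 1 double-deleted array each and differed by -3.13 ± 0.63 and -3.34 ± 0.80. Epha2 lost its call without any 1 array except WT DN1, and Rhox2h without any except WT DN2 (up to 0.109 and 0.155). The detection limit, the lowest level well above background, lay between -4.89 and -3.63 on the WT arrays and between -5.27 and -4.56 on the double-deleted arrays.

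In the list of NK and innate lymphoid genes, 3 of 38 tested fell and none rose (7.89%, beside 7.39% of all features), with a median of -0.98. Of the 38 differences 8 were above 0, beside 7749 of 14254 among all named genes and 11347 of 27067 among all features. Members well above background numbered 38, 19 and 16 in WT DN1, DN2 and DN3 and 38, 23 and 15 in double-deleted cells. The median level was 3.81, -3.12 and -4.29 in WT and 1.40, -2.61 and -4.47 in double-deleted cells. Ifng, the cytokine interferon gamma, stood at 6.54, 3.91 and 3.83 in WT and at 3.03, -0.37 and 1.12 in double-deleted cells, with no overlap and a difference of -3.50 ± 0.86 (adjusted p = 0.0453). The chemokine Ccl4 stood at 4.61, 3.29 and 2.40 against 2.52, -0.63 and 0.84 and fell by 2.52 ± 0.61 (adjusted p = 0.0432). Klra1, an NK cell receptor, fell by 1.52 ± 0.38 (adjusted p = 0.0458). The calls of Ifng and Ccl4 were lost without any 1 array, at up to 0.177 and 0.179, and that of Klra1 without each of the 6 except WT DN3, at up to 0.154. In DN1 the list's summed linear signal was 1290 in WT and 846 in double-deleted cells, in DN2 202 and 267, and in DN3 327 and 272. The markers Klrb1c, Klrd1 and Eomes were 4.07, 3.99 and 2.22 in WT DN1 and 0.87, 1.68 and 0.78 in double-deleted DN1. Ncr1 did not go that way, at -2.76 in WT DN1 and -2.47 in double-deleted DN1. Outside DN1, only Eomes among these markers was well above background, in double-deleted DN2. The part of NK cell content in these differences was not tested.

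Differences at a single stage show where the genotypes diverged most, with 1 array on each side and so no test. In DN1, 1081 features were over 4-fold higher (3.99%) and 1381 over 4-fold lower (5.1%) in double-deleted cells. DN2 had 1157 higher (4.27%) and 693 lower (2.56%), and DN3 had 1141 higher (4.22%) and 348 lower (1.29%). The number of higher features was thus similar at the 3 stages while lower features were fewest in DN3. Over all features the levels of the WT DN1 and DN2 arrays correlated at r = 0.927 and those of double-deleted DN1 and DN2 at 0.959, although the latter pair came from separate slides. These values run across features, which are not replicates, and only describe the arrays.

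**Figure D4:**
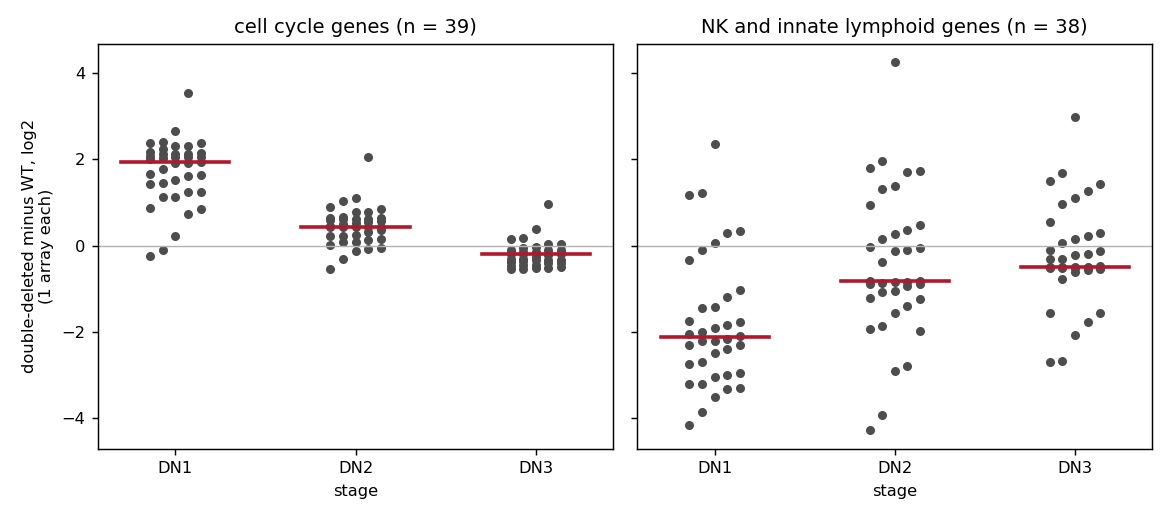
Log2 difference of double-deleted minus WT at each stage (1 array of each genotype) for 39 cell cycle genes and 38 NK and innate lymphoid genes, each point being 1 gene and the red bar the median. Cell cycle medians go from 1.94 in DN1 to 0.44 in DN2 and -0.19 in DN3, and NK medians from -2.13 to -0.83 and -0.49. Only 19 and 16 of the 38 NK genes were well above background in WT DN2 and DN3.

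Cell cycle genes had a median difference from WT of 1.94 in DN1, 0.44 in DN2 and -0.19 in DN3. WT DN1 cells had a low summed linear signal of the 39 genes, 254, against 1110 in DN2 and 1180 in DN3, while double-deleted cells stood at 786, 1330 and 1030. In DN1, 37 of the 39 were higher in double-deleted cells, 33 of them over 2-fold, and in DN3 only 6 were higher and none over 2-fold. Of all 14254 named genes, 8860 were higher in DN1 and 5218 in DN3, with median differences of 0.27 and -0.15. Mki67, the proliferation antigen Ki-67, stood at 3.55, 6.07 and 5.89 in WT and at 5.70, 6.58 and 5.74 in double-deleted cells. Top2a, a topoisomerase of dividing cells, stood at 1.03, 3.58 and 3.86 against 3.43, 4.36 and 3.41. Over the 3 stages none of the 39 cell cycle genes was called by limma (0 also at an unadjusted p under 0.05), with a median of 0.76 beside 0.06 for all named genes.

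The stage pattern was tested with a term for double-deleted cells at each stage, which sets their pattern against the one shared by WT and both single deletions. For DN1 against the mean of DN2 and DN3, 6 of 27063 features were called (0.0222%), 3 of them named genes and none of them in a list, and 824 passed an unadjusted p under 0.05. No cell cycle gene was among those 824. For DN3 against DN2, limma called 0 features, with 527 at an unadjusted p under 0.05. Cfap300, a ciliary protein, stood at 6.76 and 6.93 in double-deleted DN2 and DN3 and at -0.32 in DN1, against 7.86, 7.46 and 7.08 in WT, a contrast of -7.38 ± 0.55 (adjusted p = 0.0218). Crb1, a cell polarity gene, and the vomeronasal receptor Vmn2r108 were well above background only on the double-deleted DN1 array among the 6, with contrasts of 6.39 ± 0.48 and 6.56 ± 0.44. Double-deleted DN1 was the only array of its slide, so slide and stage cannot be told apart for these.

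**Figure D5:**
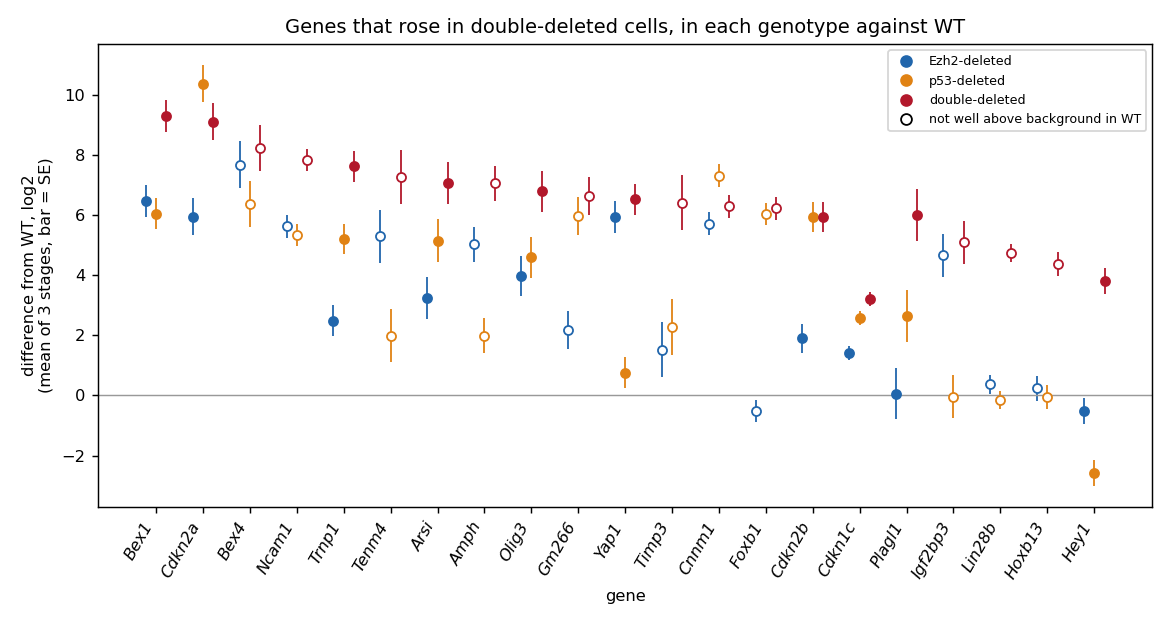
Log2 difference from WT (mean over 3 stages, bars are SE) in Ezh2-deleted, p53-deleted and double-deleted cells for 14 of the 15 genes with the largest rise and 7 other named genes. Open points mark genes not well above background on any WT array, whose size depends on WT signal below detection; Yap1 lies at 5.95 with Ezh2 deletion and at 0.76 with p53 deletion.

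The single deletions were measured at the same stages, and their levels are set beside the rises. The single deletions shared a slide of their own, so slide and genotype cannot be told apart here. The Ezh2-deleted arrays also differed from the WT and double-deleted arrays in the sex markers Xist and Eif2s3y. In comparisons with Ezh2-deleted cells, sex and genotype therefore cannot be told apart either, X-linked Bex1 included. For double-deleted cells, limma called 8140 of 27067 features against Ezh2-deleted cells (30.1%) and 8451 against p53-deleted cells (31.2%). The differences from WT given next share the WT arrays. Bex1 was 6.48 above WT with Ezh2 deletion, 6.06 with p53 deletion and 9.31 with both. The double-deleted level of Bex1 was above that of Ezh2-deleted cells by 2.83 (adjusted p = 0.00454) and of p53-deleted cells by 3.25. Ncam1, not well above background in WT, stood at 0.05, 0.81 and 1.17 in Ezh2-deleted cells and at -0.35, 0.35 and 1.15 in p53-deleted cells, and its double-deleted level was above these by 2.21 (adjusted p = 0.00327) and 2.50 (adjusted p = 0.00171).

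Cdkn2a was highest in p53-deleted cells, at 6.36, 6.18 and 6.41, between in double-deleted cells, at 5.29, 5.24 and 4.60, and lower in Ezh2-deleted cells, at 0.87, 2.54 and 2.24. The double-deleted and p53-deleted levels were not called different (-1.27, adjusted p = 0.146), while the difference from Ezh2-deleted cells was 3.16 (adjusted p = 0.00593). Cdkn2b had the same order of double-deleted above Ezh2-deleted cells, with a difference of 4.05. Some genes followed 1 deletion. Yap1 was 5.95 above WT with Ezh2 deletion and 0.76 with p53 deletion. Igf2bp3 stood at -0.54, 0.39 and -0.16 in Ezh2-deleted cells, and was well above background on no WT array and on 1 p53-deleted array. Foxb1 stood at 1.47, 1.17 and 1.60 in p53-deleted cells and was not well above background on any WT or Ezh2-deleted array. Lhx2 stood at 0.24, -0.09 and 1.07 in p53-deleted cells and was not well above background on any Ezh2-deleted array.

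Lin28b and Hoxb13 were well above background on all double-deleted arrays and on no WT or single-deletion array. Their double-deleted levels were called higher than those of Ezh2-deleted cells (adjusted p = 2.53e-05 and 0.000158) and of p53-deleted cells (adjusted p = 1.19e-05 and 9.58e-05). Hey1 differed from WT by -0.52 with Ezh2 deletion (adjusted p = 0.379) and by -2.58 with p53 deletion (adjusted p = 0.00202), against 3.80 in double-deleted cells, and the double-deleted level was above those of the single deletions by 4.32 and 6.38.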

How the data were processed

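Total RNA of sorted cells, 20 ng per the labels' protocols, was labelled with Cy3 and hybridised to 1-colour mouse arrays. Per the file headers, the authors read the arrays with Feature Extraction 10.7.1.1, which gave the deposited signal intensity of each spot after background subtraction, with no scaling between arrays. Each array was scaled here by its 75th percentile and put on a log2 scale. Control and outlier spots were left out, spots of 1 probe were averaged, and 27656 of 55681 probes matched 1 gene symbol through a RefSeq accession (GRCm38.p6 table). Probes detected on 2 or more of the 14 arrays were kept, with the brightest standing for its gene, giving 27067 features. No probe was saturated.

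An additive model of genotype and stage was fitted over the 12 arrays without leukemia, using limma 3.58.1 in R 4.3.3 (lmFit, eBayes, Benjamini-Hochberg over all features), with 6 residual degrees of freedom and 2.86 from the prior. A gene was called at an adjusted p under 0.05. The stage contrasts had 4 residual degrees of freedom. The code was tested on simulated data. Precision is limited by the number of arrays. A bound is the mean of the brighter group against, per array of the dimmer group, the higher of its detection limit and the probe's own level. It is not strict where an array of the brighter group was itself not well above background. Promoter windows are from RefSeq. A comparison of CpG content between genes that rose and fell was void, since 74.6% and 78.6% of them had a window.

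Genes named are Trp53, Ezh2, Bex1, Cdkn2a, Ncam1, the 15 largest rises and falls called with 1 sign at all stages, and called members of 32 gene lists (the first 2 tested where at most 1 was called). A few genes that this rule names are not reported here, though counts include them. The groups, lists and members were chosen with earlier results of these data known. Alternatives were another background correction (normexp with an offset of 50, on median spot intensities, since the files used here hold no mean), other scalings and filters, other sets of arrays, slide as a block, the authors' value table, and each array left out.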

Additional observations from a re-analysis of the deposited data

Results flagged for a closer look

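Among named genes, 3 had a stage pattern in double-deleted cells that differed from that of the other genotypes (limma, adjusted p = 0.0218 each). The contrast of DN1 against the mean of DN2 and DN3 was -7.38 for Cfap300, 6.39 for Crb1 and 6.56 for Vmn2r108. Cfap300 stood at 1.82 to 2.91 on the 6 single-deletion arrays, at 6.76 to 7.86 on the 5 arrays of the slide shared by WT and double-deleted cells, and at -0.32 on double-deleted DN1, which was alone on its slide. Crb1 and Vmn2r108 were not well above background on any WT or other double-deleted array, and stood at -0.19 and -0.20 on double-deleted DN1.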

How the results depend on the processing

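Of 89 named genes examined under 21 alternatives, 28 were called in each, 26 of them higher and 2 lower in double-deleted cells. Directions turned for Ezh2, which was not called (-0.15 within the shared slide, -0.10 to 0.68 with 1 array left out, the lowest without WT DN1), and for Hoxa4 and Tceal7 under normexp (-0.16 each). For double-deleted against WT, where 2001 features were called, 10332 were called with normexp, 1161 with scaling by probes detected on all arrays, 1291 with median scaling, 626 with only the 6 arrays, 552 with slide as a block and 358 within the shared slide. Leaving out 1 array gave 395 to 1862, and the fit without double-deleted DN1 was the same as that with slide as a block. Median scaling moved the median of all features from -0.14 to 0.06 and quantile normalisation moved it to -0.03. Against Ezh2-deleted cells (8140 called), normexp gave 16487, no filter gave 19247, and leaving out 1 array gave 3977 to 5886. Against p53-deleted cells (8451), normexp gave 16124 and leaving out 1 array gave 4765 to 7674. For the DN1 contrast (6), normexp gave 20, scaling by probes detected on all arrays 0, no filter 208, a filter on detection in 3 of 6 arrays 1, and a common detection floor, added after seeing the data, 54. Leaving out 1 array gave 0 to 5. For DN3 against DN2 (0), quantile normalisation gave 14, no filter 302 and the common floor 78. The cause of these shifts was not tested. With 1 array for each genotype and stage, the counts describe these arrays, and genes near the detection limit have bounds only. The labels give no replicate numbers by which arrays could be paired by mouse. Arrays were paired by stage alone, through the stage term of the fit.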
